A study of Mus musculus with 6 samples.

Results

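The transcripts of the mitochondrial genome and of the nuclear genes that build and run its expression machinery were followed in mouse OT-I CD8+ T cells after co-culture with myeloid cells. Members were chosen by gene name from the deposited table: 13 rows of the mitochondrial genome (prefix mt-), 49 Mrpl and 29 Mrps genes for proteins of the large and small subunit of the mitochondrial ribosome, and 10 nuclear genes (Tfam, Polrmt, Tfb1m, Tfb2m, Mterf1a, Polg, Polg2, Twnk, Lrpprc and Slirp). They came to 101 of the 25638 genes in the table. The 13 mitochondrial rows are the protein-coding genes of that genome, and its rRNAs and tRNAs were not analysed here.

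OT-I cells carry a transgenic T cell receptor for an ovalbumin peptide, and the labels give them as CD8+ T cells of genotype WT. All 3 groups were stimulated for 48 h with this peptide (OVA257-264), the vehicle group included, so that every library came from stimulated cells. The other groups were cultured with TANs, sorted as CD11b+Ly6G+Ly6Clow cells, or with TAMos, sorted as CD11b+Ly6G-Ly6Chigh cells, both taken from the spleens, not the tumours, of mice bearing LLC tumours, a transplantable lung carcinoma. The comparison asks how each myeloid population affects stimulated T cells. Each group had 2 libraries of RNA from T cells purified after the culture, and no age is given. The labels do not say whether both libraries of a group stem from different cultures or animals, so p-values here measure only the spread between these libraries, and that spread may be technical. What the abbreviations TAN and TAMo stand for is not stated.

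Mammalian mitochondrial DNA is a small circle that encodes core subunits of respiratory complexes I, III and IV and of the ATP synthase, together with the RNAs needed to translate them. A single-subunit RNA polymerase, POLRMT, with TFAM and TFB2M copies both strands into long precursors, which are cut into single transcripts and, for most of the mRNAs, polyadenylated. Every protein of the mitochondrial ribosome is encoded in the nucleus and imported, so a working respiratory chain needs both genomes. In activated T cells, mitochondrial protein synthesis and respiration are known to increase as the cells grow and divide.

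Expression was given as FPKM, a read count divided by gene length in kilobases and by the M of reads counted in the library, which allows levels to be compared between genes. The steps between low values corresponded to 41.7 to 45.3 M counted reads per library. In TAMo replicate 1, 98.8% of the recovered read numbers were even (60.2% to 63.6% elsewhere), so its depth may be 21.9 M and is uncertain. T cell identity was visible in all groups: 9 of 10 CD8 T cell markers were in the table, all of them at 1 FPKM or more in each group, with a summed level of 1431 to 1492 FPKM in the vehicle and TAN libraries and 1697 and 1703 FPKM in the TAMo libraries. Not all of these markers were higher there: Cd5 was at 302 and 303 FPKM against 77.8 to 93.8 FPKM elsewhere, but Cd8a was at 94.5 and 95.1 FPKM against 135 to 152 FPKM, and Cd2 at 48.2 and 55.3 FPKM against 189 to 215 FPKM. In the TAMo libraries the summed level of 3 proliferation markers was 10.6 and 11.6 FPKM against 332 to 334 FPKM in the other groups. The summed level of 20 monocyte and macrophage markers was 470 and 473 FPKM in the TAMo libraries, 197 and 198 FPKM in vehicle and 205 and 211 FPKM in TAN, with 5 or 6 of the 20 at 1 FPKM or more in each group. Plac8 alone made up 433 and 441 FPKM of the TAMo sums and 145 to 167 FPKM of the others, while Lyz2, Csf1r and Adgre1 were at 0.182 FPKM or less in every library. Of the lower markers, Cd14 was at 2.84 and 3.17 FPKM with TAMos and at 0.0852 FPKM or less in the others, Cd68 at 3.63 and 7.05 against 1.82 to 2.95 FPKM, and Ms4a6c at 4.88 and 6.28 against 2.38 to 3.12 FPKM. Ly6c2 went the other way, at 4.39 and 3.64 FPKM with TAMos against 22.1 to 30.3 FPKM elsewhere. Ctss stood at 13.4 to 15.5 FPKM over all libraries. Of 14 neutrophil markers none reached 1 FPKM. The part of any of these marker differences in the results was not tested.

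With TAMos, transcripts of all 13 mitochondrial genes fell, by 4.89-fold or more, and their combined share of the expression table was lower in both libraries, while with TANs the share overlapped that of vehicle. Together the 13 genes took 8.15% and 8.34% of the summed FPKM with vehicle and 8.07% and 8.21% with TANs. With TAMos the shares were 1.20% and 1.32%. The mean share was 8.24% ± 0.132 (SD, n = 2) for vehicle, 8.14% ± 0.103 (SD, n = 2) for TAN and 1.26% ± 0.0803 (SD, n = 2) for TAMo. An exact permutation test, two-sided, gave p = 0.667 for TAN against vehicle and p = 0.3333 for TAMo against vehicle. The latter is the smallest p that 2 libraries against 2 allow, so this test cannot pass 0.05.

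The most abundant of the 13 was mt-Co1 (M:5328-6872, plus strand), the catalytic subunit of cytochrome c oxidase. Its level was 28058 and 28639 FPKM in vehicle, 28587 and 29140 FPKM with TANs, and 3341 and 3845 FPKM with TAMos. Both TAMo libraries lay far below the other 4, while vehicle and TAN overlapped. Against vehicle, mt-Co1 was 7.89-fold lower with TAMos (log2 change of FPKM + 1 of -2.98 ± 0.065 SE, adjusted p = 9.48e-09).

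Genes for complex I, which takes electrons from NADH, made up 7 of the 13. mt-Nd1 (M:2751-3707) stood at 7511 and 7659 FPKM in vehicle, 7287 and 7390 FPKM in TAN, and 844 and 845 FPKM in TAMo. mt-Nd2 (M:3914-4951) was at 3484 and 3571 FPKM, 3518 and 3603 FPKM, and 479 and 493 FPKM in the same order of groups. Neither gene's TAMo libraries overlapped those of another group. The log2 changes of TAMo against vehicle were -3.17 ± 0.029 SE for mt-Nd1 (adjusted p = 3.82e-10) and -2.86 ± 0.030 SE for mt-Nd2 (adjusted p = 6.03e-10).

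The other complex I genes of high level were mt-Nd4, mt-Nd5 and mt-Nd6. Vehicle, TAN and TAMo libraries held mt-Nd4 (M:10167-11544) at 1919 and 1969, 1755 and 1767, and 213 and 274 FPKM. For mt-Nd5 (M:11742-13565) the levels were 2866 and 2905, 2610 and 2665, and 558 and 578 FPKM. For mt-Nd6, the only one of the 13 on the minus strand (M:13552-14070), they were 1579 and 1653, 1393 and 1441, and 331 and 331 FPKM. The groups did not overlap in any of these 3 genes, with vehicle highest and TAMo lowest. The falls with TAMos were -3.00 ± 0.10 SE for mt-Nd4, -2.34 ± 0.030 SE for mt-Nd5 and -2.29 ± 0.032 SE for mt-Nd6 (adjusted p = 8.07e-08, 1.18e-09 and 1.52e-09). The last 2 were the smallest changes of the 13. mt-Nd6 and the end of mt-Nd5 share only the short annotated stretch M:13552-13565, on opposite strands. Whether counting used strand is not given, so reads from the RNAs of both strands cannot be told apart.

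mt-Cytb (M:14145-15288), the mitochondrially encoded subunit of complex III, was at 5380 and 5456 FPKM in vehicle, 4991 and 5043 FPKM in TAN, and 741 and 761 FPKM in TAMo. It was 7.21-fold lower with TAMos (log2 change -2.85 ± 0.029 SE, adjusted p = 5.31e-10). Vehicle lay above TAN without overlap, and TAMo below both.

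The remaining 6 genes had far lower levels, and most of them have near-identical copies in the nuclear genome, described after their values. mt-Co2, for the copper-binding subunit of cytochrome c oxidase, was at 348 and 325 FPKM in vehicle, 325 and 268 FPKM in TAN, and 38.1 and 45.4 FPKM in TAMo. mt-Co3, for another core subunit of it, was at 128 and 124, 112 and 107.6, and 14.4 and 17.8 FPKM. mt-Atp6, for the proton channel of the ATP synthase, was at 60.1 and 85.7, 76.7 and 88.0, and 5.63 and 11.7 FPKM. In each of these the TAMo libraries were lowest, while vehicle and TAN overlapped in mt-Co2 and mt-Atp6 and not in mt-Co3. mt-Nd4l was at 33.6 and 44.1, 40.4 and 45.7, and 2.30 and 6.46 FPKM. mt-Nd3 was at 31.2 and 77.1, 33.7 and 38.9, and 1.44 and 3.03 FPKM, and its vehicle libraries stood further apart, as a ratio, than those of any other mitochondrial gene. The log2 changes of TAMo against vehicle were -2.99 for mt-Co2, -2.90 for mt-Co3, -2.99 for mt-Atp6, -2.99 for mt-Nd4l and -4.00 for mt-Nd3, with SEs of 0.10, 0.084, 0.29, 0.33 and 0.40 (adjusted p from 3.82e-08 to 7.60e-05).

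mt-Atp8 (M:7766-7969) was the lowest of the 13, at 11.2 and 8.99 FPKM in vehicle, 8.63 and 10.9 FPKM in TAN, and 0 and 0.706 FPKM in TAMo. By the steps between values these are about 102 and 83 reads, 79 and 100 reads, and 0 and 6 reads. The gene passed the filter of 1 FPKM through the vehicle and TAN libraries alone, so that a lower TAMo level was built into its being tested. Its log2 change with TAMos was -3.08 ± 0.24 SE (adjusted p = 9.51e-06), a value that depends on the 1 FPKM added before the log.

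**Figure D1:**
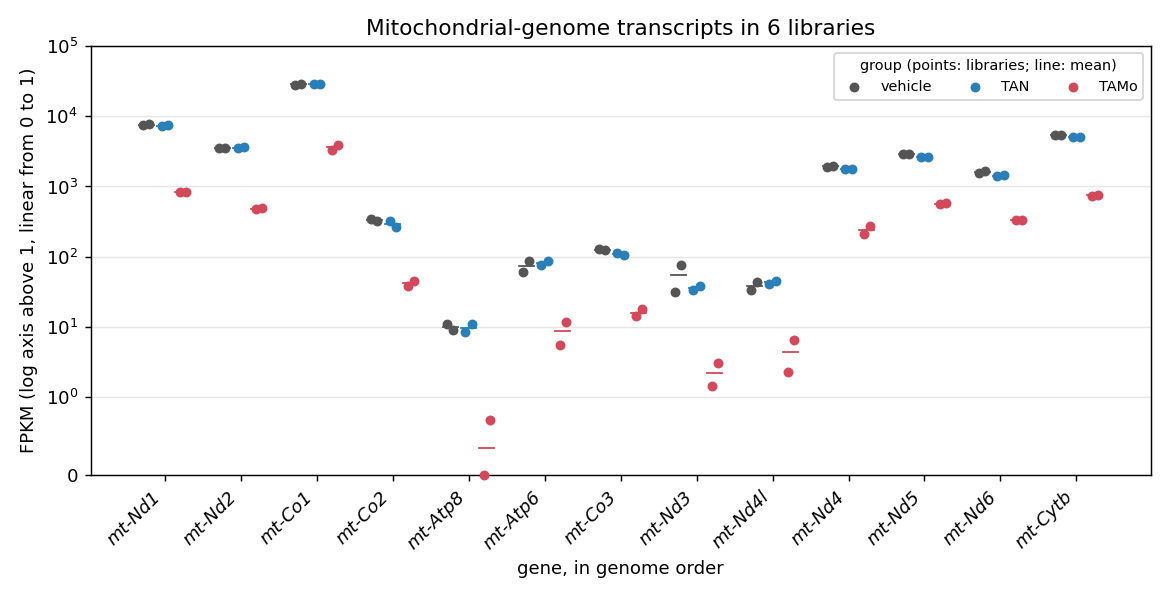
FPKM of the 13 mitochondrial genes, in genome order from left to right, on a log axis above 1 FPKM and a linear one from 0 to 1; points are libraries (2 per group) and short lines their means. The TAMo points lie below the vehicle and TAN points in every gene, and levels range from mt-Co1 near 28348 FPKM to mt-Atp8 near 10.1 FPKM in vehicle.

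Compared with the mitochondrial genome, an annotated stretch of mouse chromosome 1 holds 7 unprocessed pseudogenes in the same order as mt-Co1 to mt-Nd4 (chr1:24611535-24616197, minus strand, 4663 bases in the mm10 assembly GRCm38). Over 4149 aligned bases they differed from the mitochondrial genes at 7. To show how little separates them, the first 60 bases of the copy of mt-Co1 and 60 bases each of those of mt-Co3 and mt-Nd3 are printed under the mitochondrial sequence (GENCODE sequences, 5′ to 3′ on the sense strand of the gene; capitals mark bases that differ between the members of a pair). mt-Co1 is shown from M:6381-6440 and its copy Gm29216 from chr1:24616138-24616197.
mt-Co1: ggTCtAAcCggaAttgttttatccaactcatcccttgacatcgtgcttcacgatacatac
Gm29216: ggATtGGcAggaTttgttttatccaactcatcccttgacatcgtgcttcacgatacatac
The difference of 6 bases in this pair lies at the edge of the copy, and the rest of Gm29216 matched mt-Co1 throughout its 492 aligned bases. mt-Co3 is shown from M:8707-8766 beside Gm28437 from chr1:24613812-24613871, where no base differed, and mt-Nd3 from M:9459-9518 beside Gm28438 from chr1:24613060-24613119, where 1 base did.
mt-Co3: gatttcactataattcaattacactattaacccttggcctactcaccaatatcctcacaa
Gm28437: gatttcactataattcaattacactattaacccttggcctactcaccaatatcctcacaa
mt-Nd3: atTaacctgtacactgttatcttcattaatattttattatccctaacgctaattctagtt
Gm28438: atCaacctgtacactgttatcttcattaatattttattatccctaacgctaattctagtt
A read that lies in such a stretch fits both places equally well. None of the 7 pseudogenes had a row in the table, and how the authors counted reads that fit several places is not stated in the sources used here.

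The share of each mitochondrial gene's 100-base windows with an exact copy in an annotated nuclear pseudogene divided the 13 genes. It was 99.5% for mt-Co2 and mt-Atp6, 99.9% for mt-Co3, 97.6% for mt-Nd3 and 98.5% for mt-Nd4l. It was 60.8% for mt-Nd4, 30.8% for mt-Co1 and 3.19% for mt-Nd2. No copied window was found in mt-Nd1, mt-Nd5, mt-Nd6, mt-Cytb and mt-Atp8. Besides the pseudogenes of the chromosome 1 stretch, matches lay in Gm13339 (for mt-Nd2), Gm13340 (for mt-Co1) and Gm13341 (for mt-Co2). The vehicle means of the 5 genes with over 90% of windows copied were 38.8 to 336 FPKM, and those of 5 genes with under 5% were 1616 to 7585 FPKM, mt-Atp8 left aside. mt-Atp8 has no annotated copy of its own, but the pseudogenes of mt-Co2 and mt-Atp6 are 233 bases apart on chromosome 1, against 230 bases between the genes themselves, the stretch where mt-Atp8 begins. The part of these copies in the levels was not tested. The fall with TAMos was present in both sets: the TAMo means were 2.24 to 41.7 FPKM in the copied genes and 331 to 845 FPKM in the others.

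**Figure D2:**
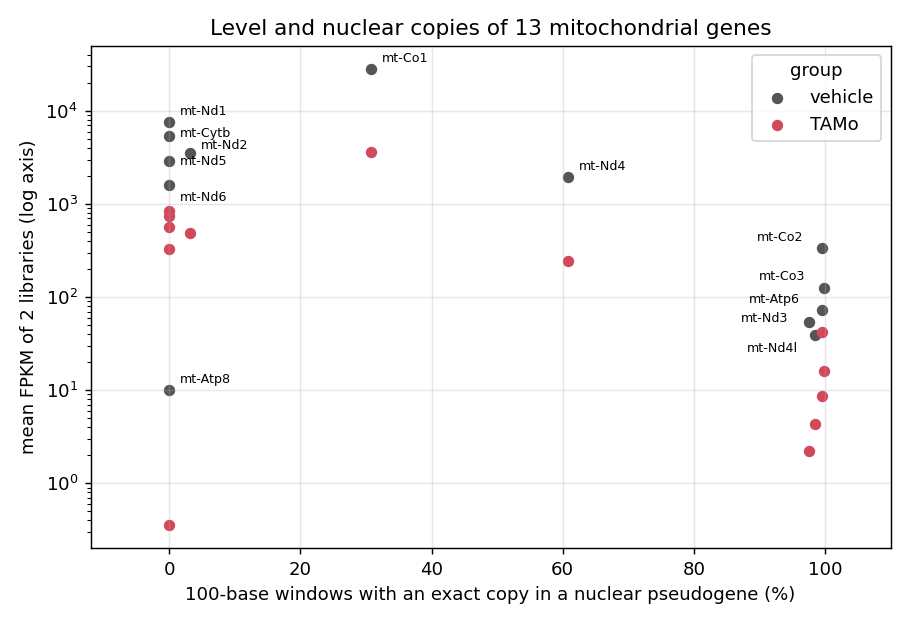
Mean FPKM of 2 libraries (log axis) of each of the 13 mitochondrial genes against the percentage of its 100-base windows with an exact copy in an annotated nuclear pseudogene, for vehicle and TAMo. The 5 genes at the right, with over 90% of windows copied, had vehicle means of 38.8 to 336 FPKM, and each TAMo point lies below the vehicle point of its gene.

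In the test across all genes, 13 of 13 mitochondrial genes were lower with TAMos, all of them by at least 1 on the log2 scale, with a median of -2.99 and a range of -4.00 to -2.29. Of all 10727 genes tested in this comparison 86.5% were called, 40.7% lower, and 14.4% lower by at least 1, with a median of 0.057. The groups did not overlap, with both TAMo libraries lower, in 13 of 13 mitochondrial genes, against 43.7% of all genes. These counts include mt-Atp8, whose lower TAMo level was built into its being tested. In bulk RNA, fewer cells that hold a transcript and less of it per cell cannot be told apart.

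The make-up of the mitochondrial mRNA differed less than its amount. mt-Co1 was 54.6% and 54.5% of the mitochondrial FPKM in vehicle, 56.3% and 56.5% in TAN, and 50.9% and 53.3% in TAMo. mt-Nd6 was at 5.63% and 5.77% of the mt-Co1 level in vehicle, 4.87% and 4.95% in TAN, and 9.89% and 8.60% in TAMo, and mt-Nd5 was at 10.2% and 10.1%, 9.13% and 9.14%, and 16.7% and 15.0%. The 3 groups did not overlap in either ratio, with TAN lowest and TAMo highest. The same order held for mt-Cytb (19.2% and 19.1%, 17.5% and 17.3%, and 22.2% and 19.8%) and mt-Nd2 (12.42% and 12.47%, 12.31% and 12.37%, and 14.3% and 12.8%). For mt-Nd1, vehicle was highest and TAMo lowest (26.8% and 26.7%, 25.5% and 25.4%, and 25.3% and 22.0%). These ratios are a description with no test. They were formed for these genes only, and mt-Nd4, also of high level, is not among them.

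Because FPKM is relative to all counted reads, a fall this large in abundant transcripts moves all other values. With the annotated gene lengths the 13 genes took 6.88% to 7.08% of counted reads in the vehicle and TAN libraries and 0.884% and 0.979% in the TAMo libraries. By that arithmetic alone, other genes are 1.07-fold higher in TAMo (0.091 on the log2 scale). When libraries were rescaled to one sum of FPKM, the median change of all genes with TAMos went from 0.057 to 0.24, and that of the mitochondrial genes to -2.78.

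With TANs the mitochondrial transcripts were close to vehicle. The test called 3 of 13 lower and none higher, where 20.3% of all genes were called, 11% lower and 9.37% higher. The 3 were mt-Nd6 (log2 change -0.19 ± 0.032 SE, adjusted p = 0.00894), mt-Nd5 (-0.13 ± 0.030 SE, adjusted p = 0.0249) and mt-Cytb (-0.11 ± 0.029 SE, adjusted p = 0.0388), which are neighbours at the end of the genome. With limma's unadjusted p under 0.05, 0 were higher and 3 lower. mt-Co1 was 28348 ± 411 FPKM in vehicle and 28864 ± 391 FPKM in TAN (SD, n = 2), a log2 difference of 0.026 ± 0.065 SE (adjusted p = 0.816). Vehicle and TAN did not overlap, with TAN lower, in 6 of the 13 genes, against 33.3% of all genes. The 3 calls rest on all 4 libraries: 1 mitochondrial gene was called without vehicle replicate 1, 1 when TAN replicate 2 was left out, and 0 without vehicle replicate 2 or TAN replicate 1. Without TAMo replicate 1 or TAMo replicate 2, 5 were called.

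The nuclear factors that transcribe, replicate and stabilise the mitochondrial genome fell much less than its transcripts, and a transcription factor, Tfb2m, rose. With TAMos 9 of the 10 were lower and 1 was higher, where 40.7% of all genes were lower and 45.7% higher. None of the 10 changed by 1 or more on the log2(FPKM + 1) scale, as 14.4% of all genes did downward and 14.9% upward, and their median was -0.63. By mean FPKM, Tfam was 2.02-fold and Mterf1a 2.10-fold lower. Tfam, which packages mitochondrial DNA and starts its transcription, is shown by its promoter because it is the factor nearest to both processes (RefSeq, GRCm38.p6, chr10:71237995-71238294, minus strand, 5′ to 3′; capitals mark a match to the ETS core CCGGAAG described further on).
Tfam: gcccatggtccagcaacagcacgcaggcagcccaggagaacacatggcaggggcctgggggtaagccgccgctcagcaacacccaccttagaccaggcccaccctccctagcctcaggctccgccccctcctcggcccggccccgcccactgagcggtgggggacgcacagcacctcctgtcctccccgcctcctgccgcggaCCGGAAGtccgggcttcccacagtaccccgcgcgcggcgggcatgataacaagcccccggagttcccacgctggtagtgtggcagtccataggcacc
Tfam (chr10:71225464-71238280) was at 45.4 and 46.4 FPKM in vehicle, 41.1 and 47.3 FPKM in TAN, and 21.1 and 24.2 FPKM in TAMo. The TAMo libraries were the lowest, and vehicle lay within the TAN range. Tfam was 2.02-fold lower with TAMos (log2 change -0.99 ± 0.080 SE, adjusted p = 1.14e-05).

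Polrmt, the mitochondrial RNA polymerase, was at 23.1 and 20.95 FPKM in vehicle, 19.5 and 20.2 FPKM in TAN, and 14.0 and 13.3 FPKM in TAMo (TAMo against vehicle -0.65 ± 0.058 SE, adjusted p = 1.96e-05). Tfb2m, which opens the promoter with it, was at 8.10 and 9.11 FPKM in vehicle, 9.09 and 9.23 FPKM in TAN, and 12.7 and 14.1 FPKM in TAMo. It was the only one of the 10 genes with higher TAMo libraries, 1.56-fold above vehicle (log2 change 0.58 ± 0.075 SE, adjusted p = 1.75e-04). Its relative Tfb1m, an rRNA methyltransferase of the small subunit, was at 6.65 and 7.18, 6.65 and 6.51, and 3.54 and 4.03 FPKM (-0.73 ± 0.076 SE, adjusted p = 5.04e-05). Mterf1a, a transcription termination factor, was the lowest of the 10, at 4.39 and 4.82, 4.06 and 4.03, and 1.73 and 2.66 FPKM (-0.82 ± 0.13 SE, adjusted p = 6.37e-04).

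The replication genes moved unequally. Twnk, the replicative helicase, was at 10.4 and 10.9 FPKM in vehicle, 10.2 and 10.1 FPKM in TAN, and 6.71 and 6.62 FPKM in TAMo, and Polg2, the accessory subunit of the DNA polymerase, was at 6.51 and 6.17, 6.42 and 6.12, and 3.80 and 3.77 FPKM. Both fell with TAMos, by 0.60 ± 0.054 SE and 0.62 ± 0.064 SE on the log2 scale (adjusted p = 2.20e-05 and 5.02e-05). Polg, the catalytic subunit, was at 58.0 and 56.1 FPKM in vehicle, 49.4 and 47.9 FPKM in TAN, and 53.7 and 49.7 FPKM in TAMo. It was the one gene of the 10 called with TANs (log2 change -0.23 ± 0.044 SE, adjusted p = 0.0148), and that call was not made without either vehicle or either TAN library (adjusted p from 0.0589 to 0.0968). Its smaller difference with TAMos (-0.14 ± 0.044 SE, adjusted p = 0.0178) was not called without vehicle replicate 1 (adjusted p = 0.1001) or TAMo replicate 2 (adjusted p = 0.0847), and its sign turned when libraries were rescaled to one sum of FPKM (0.059, adjusted p = 0.249).

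Lrpprc and Slirp encode the 2 partners of a complex that binds and stabilises mitochondrial mRNAs. Slirp was at 12.1 and 12.8 FPKM in vehicle, 14.1 and 13.4 FPKM in TAN, and 7.43 and 6.54 FPKM in TAMo, a change of -0.75 ± 0.070 SE with TAMos (adjusted p = 2.62e-05). Lrpprc was at 54.1 and 55.5, 57.7 and 59.1, and 51.0 and 49.9 FPKM, in which the 3 groups did not overlap and TAN was highest. Its difference with TAMos, -0.12 ± 0.032 SE (adjusted p = 0.0108), turned to 0.084 (adjusted p = 0.0437) when libraries were rescaled to one sum of FPKM. With one sum of nuclear FPKM it was -0.020 and not called (adjusted p = 0.592). Without vehicle replicate 2 it was -0.099.

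**Figure D3:**
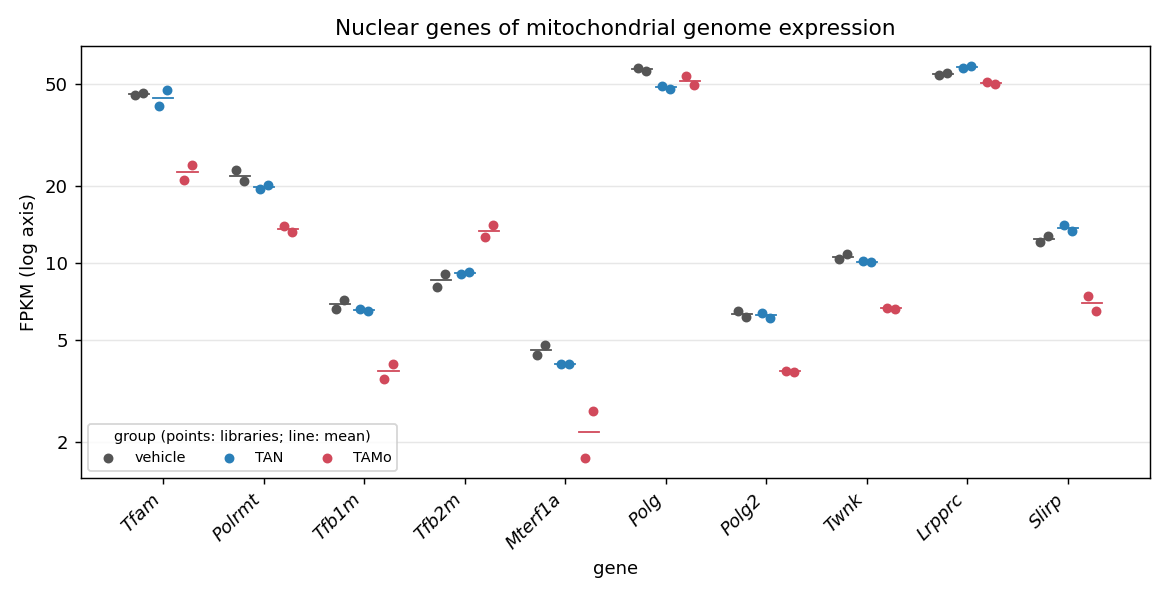
FPKM (log axis) of the 10 nuclear genes in the 6 libraries; points are libraries and short lines the means of 2. The TAMo points lie below those of vehicle in 9 genes and above them in Tfb2m, at 12.7 and 14.1 FPKM against 8.10 and 9.11 FPKM.

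Most genes for mitoribosomal proteins fell with TAMos, by far less than the mitochondrial transcripts and to unequal extents, and 4 rose. Of 78 genes 77 were tested, all of them above 1 FPKM in every library, and Mrpl53 was listed at 0 in all 6. With TAMos 69 were lower, 4 higher and 4 not called, and 21 (27.3%) were lower by at least 1 on the log2 scale, where 40.7% of all genes were lower, 45.7% higher and 14.4% lower by at least 1. With all libraries rescaled to one sum of FPKM 66 were called, 7 of them higher. Both subunits had like medians: -0.62 for the 48 Mrpl genes tested (44 lower, 2 higher, 2 not called) and -0.61 for the 29 Mrps genes (25 lower, 2 higher, 2 not called), beside 0.057 over all genes. Summed over the 13 mitochondrial genes, FPKM was 13.4 and 13.8 times that of the mitoribosome genes in vehicle, 13.6 and 14.0 times in TAN, and 2.73 and 3.001 times in TAMo.

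In the large subunit the largest fall was that of Mrpl12, the gene of highest level in vehicle, whose protein also binds the mitochondrial RNA polymerase. Its promoter is printed as that of the mitoribosome gene that changed most with TAMos against vehicle (RefSeq, GRCm38.p6, chr11:120484387-120484686, plus strand). Capitals mark GCGCAGGCG on the opposite strand, most of a repeat of the NRF-1 half-site.
Mrpl12: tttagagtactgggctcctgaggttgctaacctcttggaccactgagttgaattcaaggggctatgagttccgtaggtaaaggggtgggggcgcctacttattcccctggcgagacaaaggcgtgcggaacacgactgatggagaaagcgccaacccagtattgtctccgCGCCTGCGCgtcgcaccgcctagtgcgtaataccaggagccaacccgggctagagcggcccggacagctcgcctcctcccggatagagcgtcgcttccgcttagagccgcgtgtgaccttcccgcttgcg
Mrpl12 was at 154 and 152 FPKM in vehicle, 144 and 141 FPKM in TAN, and 46.0 and 46.1 FPKM in TAMo, 3.33-fold below vehicle (log2 change -1.71 ± 0.027 SE, adjusted p = 2.23e-09). The 3 groups did not overlap. Mrpl28 was at 116 and 110 FPKM in vehicle, 120 and 115 FPKM in TAN, and 38.2 and 30.4 FPKM in TAMo (-1.70 ± 0.092 SE, adjusted p = 1.13e-06). Mrpl18 was at 91.5 and 93.7, 87.8 and 89.0, and 30.4 and 33.9 FPKM (-1.50 ± 0.049 SE, adjusted p = 7.13e-08), and Mrpl23 at 57.4 and 53.7, 58.7 and 59.2, and 19.1 and 20.1 FPKM (-1.46 ± 0.043 SE, adjusted p = 4.35e-08). In all of these the TAMo libraries lay far below the other 4.

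In the small subunit Mrps26 was at 24.2 and 24.3 FPKM in vehicle, 21.1 and 20.4 FPKM in TAN, and 7.36 and 7.34 FPKM in TAMo, 3.30-fold below vehicle (-1.60 ± 0.044 SE, adjusted p = 2.92e-08). Mrps36 was at 42.0 and 38.9, 42.9 and 40.7, and 14.6 and 18.0 FPKM (-1.27 ± 0.091 SE, adjusted p = 5.62e-06). Its product has since been assigned to the 2-oxoglutarate dehydrogenase complex rather than the ribosome. Mrps34 was at 39.0 and 37.0, 39.5 and 33.8, and 16.5 and 16.4 FPKM (-1.16 ± 0.070 SE, adjusted p = 2.10e-06), and Mrps11 at 44.9 and 42.2, 43.7 and 41.4, and 19.0 and 19.97 FPKM (-1.12 ± 0.048 SE, adjusted p = 3.07e-07). The TAMo libraries of these genes lay below all others.

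Against this direction, Mrps6, Mrpl45, Mrpl24 and Mrps2 rose with TAMos. The promoter of Mrps6, the member that rose most, is given for comparison (RefSeq, GRCm38.p6, chr16:92058086-92058385, plus strand), and it held none of the 3 motifs searched. Of the other genes named for large falls, Mrpl18 and Mrps26 were among the genes with a match. Mrpl28, Mrpl23, Mrps36, Mrps34 and Mrps11 were not, though not every mitoribosome gene had a promoter in the set.
Mrps6: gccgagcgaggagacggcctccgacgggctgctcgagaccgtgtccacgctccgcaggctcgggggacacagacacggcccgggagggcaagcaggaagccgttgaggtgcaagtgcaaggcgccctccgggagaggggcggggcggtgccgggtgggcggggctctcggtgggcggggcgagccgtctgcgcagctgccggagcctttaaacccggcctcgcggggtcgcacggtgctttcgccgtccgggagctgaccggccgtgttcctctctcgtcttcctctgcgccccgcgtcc
Mrps6 was at 48.1 and 48.1 FPKM in vehicle, 48.2 and 44.7 FPKM in TAN, and 89.8 and 80.1 FPKM in TAMo, 1.77-fold above vehicle (0.81 ± 0.059 SE, adjusted p = 6.29e-06). Mrpl45 was at 72.1 and 73.1, 74.2 and 76.2, and 95.7 and 92.6 FPKM (0.37 ± 0.031 SE, adjusted p = 1.42e-05), and with TAMos it replaced Mrpl12 as the highest Mrpl gene. Mrpl24 was at 46.6 and 48.9, 48.0 and 51.1, and 55.3 and 56.3 FPKM (0.22 ± 0.042 SE, adjusted p = 0.00165). For Mrps2, at 18.1 and 19.4, 18.9 and 19.0, and 21.3 and 21.01 FPKM, the difference of 0.17 ± 0.047 SE (adjusted p = 0.0112) was not called without vehicle replicate 1 (0.12, adjusted p = 0.0687) or after scaling by the median of ratios (0.10, adjusted p = 0.0708). The 4 genes that were not called had log2 differences of -0.056 (Mrps31), -0.075 (Mrpl39), 0.012 (Mrps14) and -0.011 (Mrpl49), and the sign of each turned under at least 1 of the scalings tried. With one sum of FPKM Mrps14 (0.21, adjusted p = 0.00124) and Mrpl49 (0.18, adjusted p = 0.0148) were called higher, and Mrps14 was too with one sum of nuclear FPKM (0.11, adjusted p = 0.0315).

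**Figure D4:**
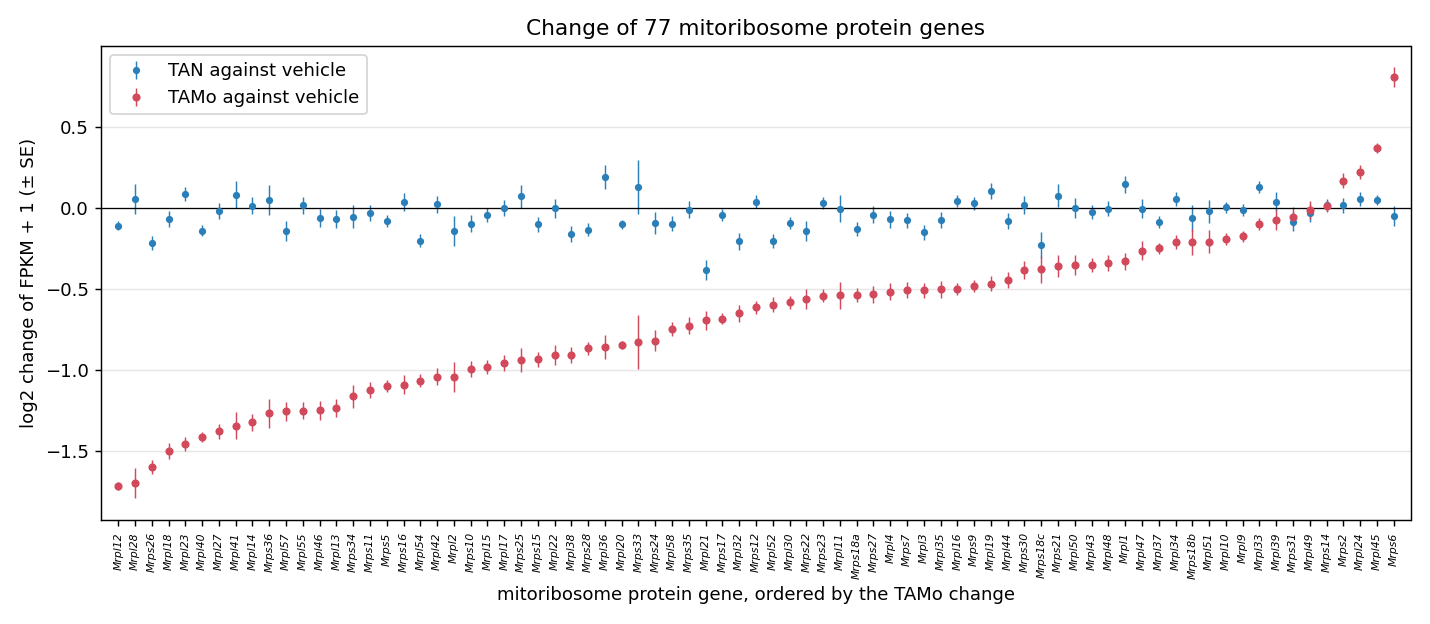
Log2 change of FPKM + 1 (± SE) of the 77 mitoribosome protein genes tested, ordered by the change of TAMo against vehicle, with TAN against vehicle at the same place. The TAMo values run from -1.71 (Mrpl12) to 0.81 (Mrps6), and the TAN values stay between -0.38 and 0.19.

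With TANs 8 of the 77 mitoribosome genes were lower, 0 higher and 69 not called, where 11% of all genes were lower and 9.37% higher. With limma's unadjusted p under 0.05, 14 were lower and 3 higher. The absence of higher calls depended on the processing. One sum of FPKM, the median of ratios and quantile normalisation each gave 1 mitoribosome gene called higher. So did a filter of a mean of at least 5 FPKM, a fit of the 2 groups alone and the replicate block. Some genes were also called higher when either TAMo library was left out. Mrpl21 had the largest fall, from 56.8 and 55.2 FPKM in vehicle to 44.7 and 40.8 FPKM in TAN (-0.38 ± 0.059 SE, adjusted p = 0.00650), with 32.6 and 36.0 FPKM in TAMo. Mrps26, whose values stand above, was the one small-subunit gene called (-0.22 ± 0.044 SE, adjusted p = 0.0168). Mrpl32 (-0.21), Mrpl54 (-0.20) and Mrpl52 (-0.20) followed, and Mrpl40, Mrpl12 and Mrpl20 fell by 0.14, 0.11 and 0.10 on the log2 scale. The median was -0.030 over the 77 genes and -0.0050 over all genes. The number called was 0 without vehicle replicate 1, 1 without vehicle replicate 2, 1 without TAN replicate 1 and 2 without TAN replicate 2, and it was 17 and 18 without TAMo replicate 1 and TAMo replicate 2.

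The TAN and TAMo libraries were also compared directly. This comparison uses the same libraries as the preceding ones and is no separate evidence. All 13 mitochondrial genes were higher with TANs, by a median of 2.87 and from 2.10 (mt-Nd6) to 3.57 (mt-Nd3). Of all genes 86.6% were called, 40.6% higher and 46% lower. The 13 include mt-Atp8, which passed the filter only through the vehicle and TAN libraries. For mt-Co1 the difference was 3.01 ± 0.065 SE (adjusted p = 9.41e-09), beside -2.98 for TAMo against vehicle and 0.026 for TAN against vehicle. Of the 77 mitoribosome genes 67 were higher with TANs, 4 lower and 6 not called. Of the 10 nuclear genes 8 were higher, Tfb2m was lower and Polg was not called. Among the 8, Lrpprc was no longer called with one sum of FPKM (0.010, adjusted p = 0.780). The mitoribosome genes of largest difference were Mrpl28 (1.75 ± 0.092 SE) and Mrpl12 (1.61 ± 0.027 SE), and Mrps6 was lower (-0.86 ± 0.059 SE).

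Promoters of nuclear genes for mitochondrial proteins are known for binding sites of the activators NRF-1 and GABP, an ETS factor. Sequences of these factors were searched on both strands of the 300-base RefSeq promoters (250 bases before to 50 after the start), in which 75 promoters matched 69 of the 78 mitoribosome genes. The ETS core CCGGAAG stood in 26 of the 75 (34.7%), in 7 of 11 promoters of the 10 nuclear genes, in 19.2% of promoters of all genes tested and in 8.86% of all promoters. GCGCATGCG, which is 9 bases of the NRF-1 palindrome, stood in 7 of the 75 (9.33%), in the promoter of Tfb2m, in 3.98% of promoters of genes tested and in 1.75% of all promoters. The changes of its 7 mitoribosome genes with TAMos ran from -0.96 (Mrpl17) to -0.075 (Mrpl39). GCGCAGGCG, a variant of the half-site repeat that was added after the first counts were seen, stood in 8 of the 75 (10.7%), against 6.32% and 2.75%. Its 8 genes held Mrpl12 and Mrps26, the largest falls of their subunits, but also Mrpl45, which rose. A match is a description of the sequence and no evidence of binding.

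The other genes that act around the mitoribosome and mitochondrial RNA were counted beside all genes, of which 86.5% were called with TAMos, 40.7% lower and 45.7% higher. All 5 mitoribosomal proteins under other names were lower (median -0.67), led by Gadd45gip1 at 30.4 and 29.5 FPKM in vehicle, 29.7 and 28.7 FPKM in TAN, and 9.75 and 10.8 FPKM in TAMo (-1.45 ± 0.056 SE, adjusted p = 1.59e-07). Of 19 mitoribosome assembly genes 17 were lower and 2 higher (median -0.56). C1qbp, an abundant matrix protein needed for mitochondrial translation, went from 342 and 332 FPKM to 122 and 122 FPKM (-1.46 ± 0.026 SE, adjusted p = 3.99e-09). Of 13 translation factors and insertion genes 8 were lower, 3 higher and 2 not called (median -0.60), and Tsfm, the exchange factor of the mitochondrial elongation factor Tu, was at 53.5 and 56.3 FPKM in vehicle and 21.1 and 20.5 FPKM in TAMo (-1.36 ± 0.038 SE, adjusted p = 3.27e-08). Of 20 RNA processing and decay genes 14 were lower, 4 higher and 2 not called (median -0.47). Grsf1, a protein of the mitochondrial RNA granules, was at 68.2 and 64.1 FPKM in vehicle and 23.9 and 25.7 FPKM in TAMo (-1.38 ± 0.047 SE, adjusted p = 9.01e-08).

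In mitochondrial transcription and DNA maintenance 7 of 14 genes were lower, 5 higher and 2 not called (median -0.20), shares near the 40.7% lower and 45.7% higher of all genes. Dna2, a nuclease and helicase that also acts in nuclear DNA replication, was at 8.91 and 8.69 FPKM in vehicle and 0.399 and 0.340 FPKM in TAMo (-2.84 ± 0.067 SE, adjusted p = 1.41e-08). Of this gene, too, the filter was passed only through the vehicle and TAN libraries. Ssbp1, which coats single-stranded mitochondrial DNA, was at 31.1 and 32.3 FPKM in vehicle and 13.6 and 15.0 FPKM in TAMo (-1.10 ± 0.056 SE, adjusted p = 7.93e-07). Of 9 regulators of nuclear genes for mitochondria 4 were lower and 5 higher (median 0.29), again near the shares of all genes. One of the lower, Ppargc1b, at 2.67 and 2.30 FPKM in vehicle and 0.496 and 0.536 FPKM in TAMo, passed the filter only through the vehicle and TAN libraries. Myc went from 423 and 425 FPKM to 292 and 296 FPKM (-0.53 ± 0.023 SE, adjusted p = 3.62e-07), while Gabpb1, a subunit of GABP, went from 24.0 and 22.9 FPKM to 35.0 and 38.4 FPKM (0.62 ± 0.053 SE, adjusted p = 1.54e-05).

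The nuclear partners of the mitochondrially encoded subunits, 74 tested genes of complexes I, III and IV and the ATP synthase, held 61 lower, 4 higher and 9 not called with TAMos (median -0.58, beside -2.99 for the mitochondrial genes), where 40.7% of all genes were lower and 45.7% higher. Cox6b2, an isoform of a cytochrome c oxidase subunit best known from testis, was the exception in size: it was at 1.53 and 1.89 FPKM in vehicle, 1.14 and 1.19 FPKM in TAN, and 52.9 and 57.5 FPKM in TAMo (4.38 ± 0.084 SE, adjusted p = 5.36e-09). Uqcrq of complex III was at 149 and 145 FPKM in vehicle and 47.1 and 49.0 FPKM in TAMo (-1.59 ± 0.035 SE, adjusted p = 9.29e-09).

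With TANs 20.3% of all genes were called, 11% lower and 9.37% higher. The counts in these lists, lower and then higher, were 0 and 0 of 5 mitoribosomal proteins under other names, 5 and 0 of 19 assembly genes, 0 and 0 of 13 translation genes, 3 and 1 of 20 RNA processing genes, 3 and 1 of 14 transcription and maintenance genes, 2 and 0 of 9 regulators and 5 and 6 of 74 nuclear respiratory subunits. With limma's unadjusted p under 0.05, no gene with another name and no translation gene was called either, and the assembly and regulator lists had 1 and 2 genes higher. Myc, which is known to raise many genes of mitochondrial biogenesis, fell to 353 and 354 FPKM with TANs (-0.26 ± 0.023 SE, adjusted p = 8.96e-04). Ndufa12 of complex I was higher, at 82.0 and 85.5 FPKM against 56.0 and 62.0 FPKM in vehicle (0.50 ± 0.079 SE, adjusted p = 0.00671).

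**Figure D5:**
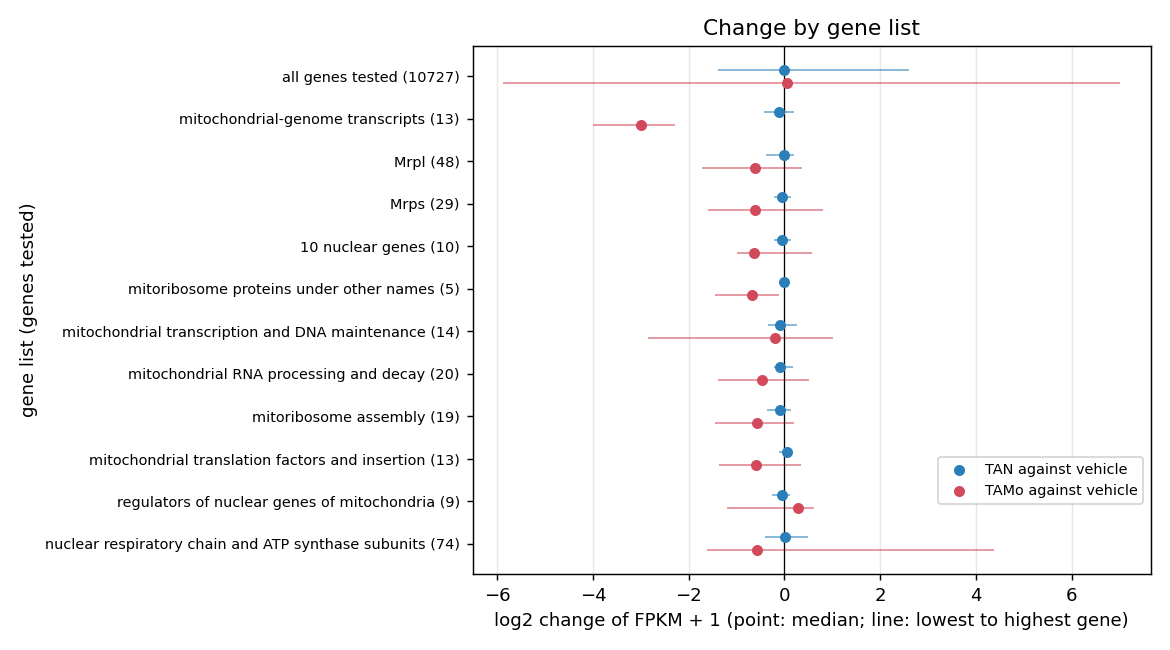
Log2 change of FPKM + 1 in 11 gene lists and in all genes tested (number of genes tested in brackets), for TAN and TAMo against vehicle; points are medians over genes and lines run from the lowest to the highest gene. With TAMos the mitochondrial genes stand at a median of -2.99, the Mrpl and Mrps genes at -0.62 and -0.61, and all genes at 0.057.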

How the data were processed

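RNA-seq of 6 libraries, 2 per group, was used, with groups and replicate numbers taken from the labels. The authors deposited FPKM per gene and library. The submitters' processing notes name the build mm10, featureCounts 1.5.0-p3, HISAT2 2.0.5 and CASAVA without saying what each did. Annotation, strand setting and the treatment of reads that fit several places are left unstated in the sources used here. Trizol RNA and a TruSeq RNA kit were used, per the labels' protocols.

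The 10727 genes that reached 1 FPKM in 2 or more of the 6 libraries were tested as log2(FPKM + 1) in limma 3.58.1 (R 4.3.3), in one fit of all 6 libraries with a mean-variance trend, with 3 residual degrees of freedom and a prior of 4.07. The test was two-sided, and a Benjamini-Hochberg adjusted p under 0.05 over all genes tested was called. A fold is a ratio of mean FPKM, and the log2 change understates it for low genes. Depth was read from the steps of low values (up to 40 reads) among 7708 genes with 1 annotated transcript. For each library the depth was taken that made the largest share of these values whole reads. At that depth 98.8% to 99.0% of the 1568 to 1755 low values per library were whole within 0.1 reads. Since FPKM keeps whole reads only by gene length, no count test was run.

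Symbols were matched to GENCODE mouse release 21 (GRCm38) for 25295 genes and for all 101 members. Copies were sought as exact 100-base matches in annotated pseudogenes with pandas 2.3.3. That search did not cover every chromosome, so a gene without a match may have a copy elsewhere. Promoters came from RefSeq (GRCm38.p6).

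The members and lists were chosen with earlier results of these data known. Named were all mitochondrial and all 10 nuclear genes, up to 4 mitoribosome genes of each subunit and direction by size of change (at least 5 FPKM in the higher group), those against their subunit's direction, and examples among the 3 largest called changes of each list. Myc was named after its values were seen where it was not among them. Same-numbered libraries did not deviate together (correlations of 0.0078 to 0.057), so the numbers were not taken as pairs. Other pseudocounts, filters, scalings, fits and omitted libraries were tried.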

Additional observations from a re-analysis of the deposited data

How the results depend on the processing

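With TAMos against vehicle and TANs against TAMos, all 13 mitochondrial genes were called under every alternative run, and 66 to 73 and 66 to 72 mitoribosome genes. With TANs against vehicle the counts depended on the processing. Of the mitochondrial genes 3 were called in the fit as reported, 1 with no filter on low values, 1 after quantile normalisation, 1 with no variance trend, 5 when only the 2 groups were fitted and 0 to 5 without 1 library. Of the mitoribosome genes the numbers were 8 as reported, 5 with no filter, 3 with no variance trend, 15 (1 of them higher) when only the 2 groups were fitted and 0 to 18 without 1 library. A fit of 2 groups has 2 fewer libraries, yet more genes were called in it, mt-Nd4 and mt-Co3 among them. Their SEs were 0.019 and 0.030 there, against 0.10 and 0.084 as reported, at the same log2 changes (-0.14 and -0.20). With no filter, 18175 genes entered the adjustment. The cause of these changed counts was not tested. The share of mitochondrial FPKM was 8.15% to 8.34% in vehicle, 8.07% to 8.21% in TAN and 1.20% to 1.32% in TAMo without 1 library of the group.

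With the replicate block, 13 and 73 genes (mitochondrial and mitoribosome) were called with TAMos, 3 and 10 with TANs, and 13 and 71 for TAN against TAMo. Of the 10 mitoribosome genes called with TANs under the block, 1 was higher. Mrpl32 was not called with TANs under the block (adjusted p = 0.0509), and Polg was for TAN against TAMo (adjusted p = 0.0482). The numbers did not pair the libraries.

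Signs turned for small differences. With TANs and 1 library left out, none of them called, mt-Nd3 ran from -1.07 to 0.21 (without vehicle replicates 1 and 2), mt-Atp6 from -0.060 to 0.44, mt-Nd4l from -0.035 to 0.35, mt-Atp8 from -0.20 to 0.12, mt-Nd2 from -0.0042 to 0.032, Polg2 from -0.047 to 0.019, Tfam from -0.16 to 0.043 and the Mrps median from -0.050 to 0.0044. mt-Atp8 was at 0.10 without vehicle replicate 1, mt-Nd2 at -0.0035 and Polg2 at 0.016 without TAN replicate 2, and mt-Nd2 at -0.079 after quantile normalisation. With TAMos and one sum of FPKM these were Lrpprc (0.084), Polg (0.059), Mrpl39 (0.12), Mrpl49 (0.18) and Mrps31 (0.14). With one sum of nuclear FPKM they were Mrpl39 (0.019), Mrpl49 (0.083) and Mrps31 (0.037), and Mrps14 turned with the median of ratios (-0.051). Without 1 library, Mrpl39 ran from -0.15 to 0.00041 (TAMo replicate 2), Mrps31 from -0.11 to 0.0032 (vehicle replicate 1) and Mrps14 from -0.011 (TAMo replicate 1; -0.0087 without vehicle replicate 1) to 0.035. For scalings and omitted libraries the cause was not tested. The share computed from protein-coding mitochondrial genes alone is the value reported, since all 13 rows are protein-coding. Reads of mt-Atp8 with TAMos, 0 and 6, are too few to size its fall.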
